A study of Mus musculus with 9 samples.

Results

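The 200 transcripts described here are autosomal transcripts of growing mouse oocytes that were higher in the pool numbered 3 than in the pool numbered 1 in females of each genotype, XX, XO and XY. They were chosen from the normalized CPM, a UMI count scaled by the gene total and by a factor computed on spike-in RNA. The 7002 candidates were the genes on chromosomes 1 to 19 with a mean of at least 10 over the 9 pools. There were 28051 genes in all. For each candidate the log2 ratio of replicate 3 over replicate 1, with 1 added to both values, was taken within each genotype, and the lowest of the 3 ratios was the score. The 200 highest scores were kept, which is 2.86% of the candidates. The score ran from 2.60 for B9d1 to 1.15 for Stmn1, with a median of 1.37 against −0.27 over all candidates. The last members inside the limit were Gars, Tbc1d1, Dnajc18, Dpys and Stmn1, at 1.16 to 1.15, and the next candidates outside it were Ppp1r11, Cdk7, Stard13, Pla1a and Gm43679, all at 1.15 when rounded. Since the rule used replicates 1 and 3 of every genotype, the difference between them is given below as a description, without a test.

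The oocytes came from females at 18 days postpartum (dpp) in the C57BL/6 (B6) background, C57BL/6J in the study's methods, and each pool mixed 10 oocytes measuring 50 to 55 µm across with 20 oocytes measuring 55 to 60 µm. The XY females carry the Y chromosome of the B6.Y TIR line, with which the gonad becomes an ovary on this background, and the XX females were their littermates. The XO females were daughters of males carrying Paf, a mutation kept on C3H/HeSnJ and then backcrossed to B6, so they came from a cross of their own and share no litter with the XX and XY females. There were 3 pools of each genotype, named XX1 to XX3, XO1 to XO3 and XY1 to XY3, and the sources used here do not say which mice gave the oocytes of which pool, or whether a replicate number marks a shared day.

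A growing oocyte stores mRNA and protein that later carry it through meiotic maturation, fertilization and the first cleavages. During the same period it secretes the zona pellucida, the glycoprotein coat to which sperm bind, and builds the cytoplasmic lattices and the subcortical maternal complex that early embryos need. Ribosomes and mitochondria also accumulate, so transcripts for ribosomal proteins, proteasome subunits and the respiratory chain are a regular component of the oocyte transcriptome.

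The depth of the pools was similar, with 2130145 to 3157338 UMIs on genes and 18334 to 21044 detected genes. The share of UMIs on mitochondrial transcripts was 13.1% in XO1 and 10.8% in XY1, between 5.09 and 6.02% in XX1, XX2 and XY2, and between 2.65 and 3.88% in XX3, XY3, XO2 and XO3. Spike-ins were between 0.204 and 0.369% of UMIs in XX3, XY3, XO2 and XO3 and between 0.478 and 0.862% in the other 5 pools. These splits run the opposite way to the level of the 200 transcripts, and their part in it was not tested. Fewer cells of a kind and less RNA per cell cannot be told apart in pooled oocytes.

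The promoters of 4 oocyte genes among the 200 are shown first, because Zp3, Cd9, Padi6 and Tcl1 are the genes through which the pattern is easiest to follow and they are expressed mainly in oocytes or needed there. Each line gives the 250 bases before the RefSeq transcription start (GRCm38.p6), 5′ to 3′ on the gene's strand, in lower case. Capitals mark every match to CANNTG, the E-box, which bHLH factors bind and which reads the same on both strands.
Zp3: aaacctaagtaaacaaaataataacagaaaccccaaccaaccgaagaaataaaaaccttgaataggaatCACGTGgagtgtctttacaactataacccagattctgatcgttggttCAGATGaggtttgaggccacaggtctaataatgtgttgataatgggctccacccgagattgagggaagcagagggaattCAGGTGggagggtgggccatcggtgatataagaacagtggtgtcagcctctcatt
Cd9: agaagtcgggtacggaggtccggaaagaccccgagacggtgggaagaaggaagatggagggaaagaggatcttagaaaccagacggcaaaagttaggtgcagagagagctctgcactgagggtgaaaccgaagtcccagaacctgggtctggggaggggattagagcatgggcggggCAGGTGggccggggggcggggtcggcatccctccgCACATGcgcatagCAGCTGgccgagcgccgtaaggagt
Padi6: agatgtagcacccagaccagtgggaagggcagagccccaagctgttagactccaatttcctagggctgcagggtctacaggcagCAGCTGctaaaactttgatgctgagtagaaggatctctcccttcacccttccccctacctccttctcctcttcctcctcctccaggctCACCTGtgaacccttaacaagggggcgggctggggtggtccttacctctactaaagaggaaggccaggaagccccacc
Tcl1: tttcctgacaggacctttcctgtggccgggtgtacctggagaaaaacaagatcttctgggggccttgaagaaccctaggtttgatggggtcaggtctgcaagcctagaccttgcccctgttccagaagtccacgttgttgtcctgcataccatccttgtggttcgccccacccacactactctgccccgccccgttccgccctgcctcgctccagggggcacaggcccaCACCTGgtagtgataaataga

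These stretches lie at chr5:135979855-135980104 on the plus strand for Zp3, and on the minus strand at chr6:125494761-125495010 for Cd9, chr4:140742644-140742893 for Padi6 and chr12:105222738-105222987 for Tcl1. They hold 3, 3, 2 and 1 E-boxes. The stretch of Cd9 lies within the annotated span of Gm26728 (chr6:125494424-125509135), another of the 200. The share with an E-box was near that of the candidates: of the 144 with an entry in the RefSeq promoter table, 63.9% held CANNTG in the 300 bases from 250 before to 50 after the start, against 63.3% of the 4980 candidates with an entry and 72.1% of all 27025 promoters. For the other motifs, searched on both strands, the shares lay further apart or nearer, with TATAAA in 10.4% against 7.21% of candidates, CCAAT in 34.7% against 40.4%, GGGCGG in 54.9% against 60.7%, CCGGAAG in 19.4% against 18.8%, and CACGTG, which is also counted as CANNTG, in 8.33% against 9.82%. In all promoters these shares were 14.2, 37.9, 35.9, 9.12 and 7.24%.

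The excess of replicate 3 over replicate 1 differed widely between the 3 genotypes. The median log2 ratio of replicate 3 over replicate 1 was 1.38 for XX oocytes, 4.73 for XO oocytes and 2.57 for XY oocytes, or 2.60-, 26.5- and 5.93-fold, while the medians over all candidates were −0.12, 0.45 and 0.13. XX oocytes therefore set the limit, giving the lowest of the 3 ratios in 189 transcripts, XY oocytes in 11 and XO oocytes in 0. In replicate 1, 8 of the transcripts had no UMI in XO1, 3 in XY1 and 1 in XX1. With replicate 1 values held at no less than 3 UMIs per library, the median folds without any value added were 2.86 for XX, 29.3 for XO and 6.59 for XY oocytes.

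**Figure D1:**
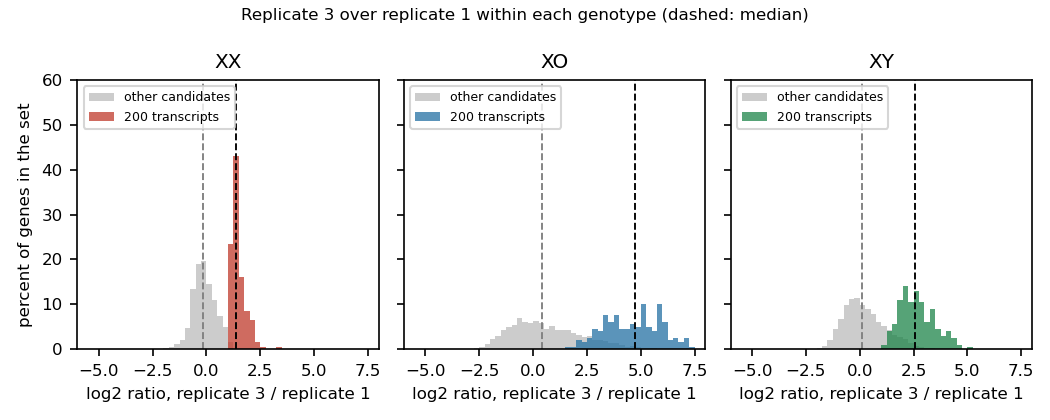
Distribution of the log2 ratio of replicate 3 over replicate 1 (normalized CPM with 1 added) in XX, XO and XY oocytes, as the percent of genes in each set, for the 200 transcripts (coloured) and the other 6802 candidates (grey); dashed lines are medians. The coloured medians are 1.38, 4.73 and 2.57, and the XX values start at the limit of 1.15 that the rule set.

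A change of this size in the same direction was commoner upward than downward. Of the 7002 candidates, 2510 (35.8%) were higher in replicate 3 in every genotype and 2317 (33.1%) were lower in every genotype, so the counts of the directions were alike. At 2-fold or more in every genotype, however, 303 were higher and 43 were lower. Past the limit of 1.15 in the downward direction in every genotype were 20 candidates.

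The name "higher in replicate 3" holds within each genotype but does not describe the order of the 9 pools. The share of gene UMIs on the 200 transcripts was 0.164% in XO1, 0.286% in XY1, 0.574% in XX1, 0.594% in XX2, 0.992% in XY2, 1.73% in XX3, 2.06% in XY3, 3.67% in XO2 and 5.15% in XO3. XO2 thus lay above the replicate 3 pools of XX and XY oocytes, and XX2 lay beside XX1. The median normalized CPM of the 200 followed the same order, from 4.66 in XO1 to 115 in XO3. In 193 of the transcripts XX3, XY3, XO3 and XO2 were all above the other 5 pools, against 22.5% of candidates, whereas the 3 replicate 3 pools were above the other 6 pools in 4 transcripts, against 0.885% of candidates.

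The library names in the labels carry a running number after the letter S, whose meaning is not given in the sources used here. In the order of that number the pools are XO1 (1), XX1 (3), XY1 (4), XX2 (6), XY2 (7), XX3 (9), XY3 (10), XO2 (12) and XO3 (13). The share of UMIs on the 200 transcripts followed this order except that XX1 and XY1 were exchanged, a Spearman correlation of 0.983 over 9 pools that differ in genotype as well as in number. Gene by gene, the correlation of normalized CPM with the library number had a median of 0.95 over the 200 transcripts and 0.30 over the candidates, and it was at least 0.9 in 173 of the 200 (86.5%) and in 17.2% of candidates. The rule favours such a correlation, since the replicate 1 pools hold the numbers 1, 3 and 4 and the replicate 3 pools 9, 10 and 13. The score did not set the places of the replicate 2 pools, numbered 6, 7 and 12. Nor did it set the order of the genotypes among the replicate 1 pools or among the replicate 3 pools. The replicate 2 pools still counted in the mean that made a gene a candidate. The correlations over 9 pools are therefore a description. The number and the genotype cannot be told apart for the highest and lowest pools, which are all XO.

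**Figure D2:**
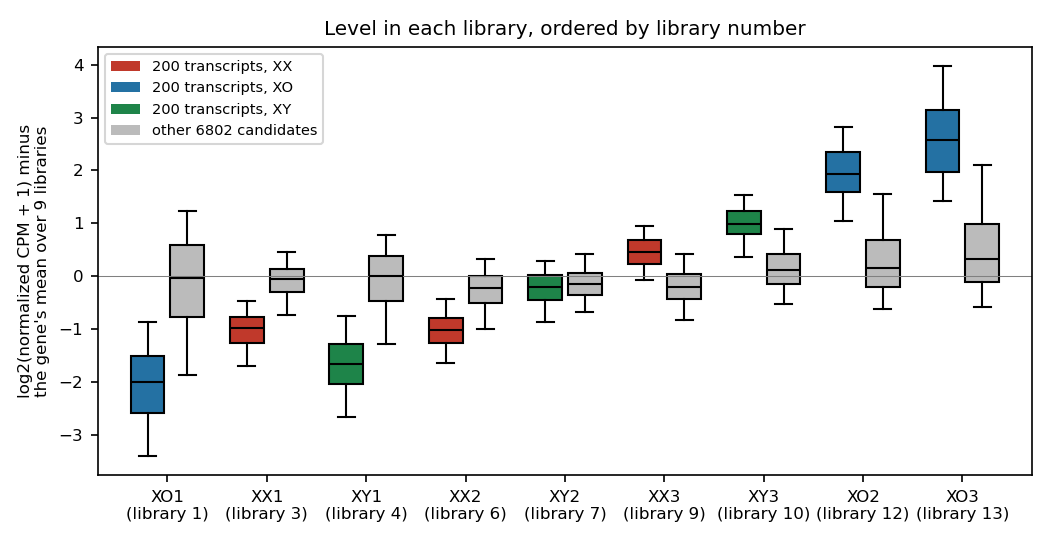
Level in each pool, as log2(normalized CPM + 1) minus the gene's own mean over 9 pools, with pools ordered by the library number in the labels; boxes are quartiles, whiskers the 5th and 95th percentiles, coloured for the 200 transcripts and grey for the other candidates. The coloured medians run from −2.01 in XO1 to 2.58 in XO3, with XY1 (−1.67) below XX1 (−0.99), while the medians of all candidates stay between −0.24 and 0.36.

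Replicate 2 was not used in the score, but it counted in the mean that made a gene a candidate. A gene could thus pass that mean through a high replicate 2 pool, so the values of replicate 2 are not fully independent of the choice. On a scale where replicate 1 is 0 and replicate 3 is 1 in log2 units, the median position of replicate 2 was −0.02 for XX2, 0.874 for XO2 and 0.541 for XY2. XX2 lay at or below XX1 in 112 transcripts and between XX1 and XX3 in 88, XO2 lay nearer to XO3 than to XO1 in 198, and XY2 lay between XY1 and XY3 in 199. The difference of replicate 2 from replicate 1 had a median of −0.03 among XX pools, 3.96 among XO pools and 1.37 among XY pools, against −0.16, 0.26 and −0.13 over the candidates. The pool numbered 2 was thus low in one genotype, intermediate in another and high in the remaining one. With each genotype having 1 pool per number, these differences have no replicate check.

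The rule was also applied to a pair of genotypes at a time, and the genotype left out was then looked at. This reuses the values of replicates 1 and 3 and is a description, not a test. The 200 transcripts chosen on XX and XY oocytes were the same 200, and in XO oocytes all 200 were at least 2-fold higher in replicate 3, with a median of 4.73, where 39.4% of candidates were. XO oocytes gave the lowest ratio in 0 of the 200, so leaving XO out changed the score of none of the 200. Those chosen on XX and XO oocytes shared 195 with the list and were at least 2-fold higher in XY oocytes in 197 cases, with a median of 2.56, where 23.02% of candidates were. Those chosen on XO and XY oocytes shared 93, and in XX oocytes 200 of 200 were higher and 131 at least 2-fold, with a median of 1.13, where 41.0 and 4.44% of candidates were. The mean of at least 10 that made a gene a candidate included the genotype left out. With that mean taken over the 6 pools of the genotypes that chose, an alternative added after the data were seen, the medians were 4.42 in XO, 2.56 in XY and 1.14 in XX oocytes. At least 2-fold higher were then 199, 195 and 131 of the 200, against 37.1, 23.8 and 4.77% of candidates. In the same order, the lists so chosen shared only 143, 181 and 91 transcripts with the 200 described here. Across the 7002 candidates, which share these libraries and are not independent, the ratios correlated at a Pearson r of 0.757 for XX with XO, 0.778 for XX with XY and 0.892 for XO with XY oocytes.

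The zona pellucida and fertilization genes contributed the largest share of any list examined, with 3 of 5 candidates among the 200, and the remaining 2 were also higher in replicate 3 in each genotype. Zp1 (chr19:10914287-10920632, GRCm38) encodes a glycoprotein that cross-links zona filaments, and its normalized CPM was 49.2, 48.0 and 112 in XX1 to XX3, 14.0, 759 and 2166 in XO1 to XO3, and 26.0, 70.6 and 129 in XY1 to XY3. Zp3, a filament glycoprotein of the zona, stood at 64.5, 49.0 and 155 in XX, 12.4, 341 and 570 in XO, and 21.8, 73.6 and 169 in XY pools. Cd9, the tetraspanin on the egg surface required for fusion with sperm, stood at 75.5, 62.7 and 270 in XX, 17.6, 919 and 1377 in XO, and 23.7, 151 and 378 in XY pools. In these genes XO1 was the lowest of the 9 pools and XO2 and XO3 the highest, so the XO pools enclosed those of both other genotypes. Zp2, the other filament glycoprotein and by far the most abundant of the list, was outside the 200, at 16343, 15914 and 17150 in XX, 4919, 14837 and 16248 in XO, and 10049, 16341 and 14911 in XY pools. Astl, the egg protease that cleaves ZP2 after fertilization, had a score of 0.51.

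Padi6 was the most abundant of the 200. It encodes a component of the cytoplasmic lattices and the subcortical maternal complex, and it stood at 771, 838 and 1764 in XX, 212, 7273 and 16520 in XO, and 535, 1081 and 2312 in XY pools. The other 16 candidates of the list of subcortical maternal complex and oocyte NLRP genes were outside the 200, and of all 17, 5 were higher and 9 lower in replicate 3 in every genotype, with a median score of −0.75. That list holds genes of the complex as well as other NLRP genes, and among the genes of the complex Ooep had a score of 0.40 and Nlrp5 one of 0.01.

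From the oocyte gene clusters, 3 of 50 candidates were among the 200. Oas1d, an oocyte member of the 2′-5′ oligoadenylate synthetase family, stood at 533, 658 and 1369 in XX, 110, 3401 and 4075 in XO, and 157, 928 and 1594 in XY pools. Tcl1, a cofactor of the AKT kinase that is abundant in oocytes and early embryos, stood at 56.6, 54.6 and 134 in XX, 19.2, 833 and 2005 in XO, and 32.5, 79.1 and 156 in XY pools. Oas1b, a relative of Oas1d, was much lower, at 2.85, 3.85 and 16.8 in XX, 2.07, 35.2 and 62.1 in XO, and 2.79, 5.53 and 13.3 in XY pools. Of the 50 candidates 28 were lower in replicate 3 in every genotype and 16 higher, so these 3 genes ran against most of their list. Members of these clusters have near copies, and reads shared between copies could have been counted for either.

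**Figure D3:**
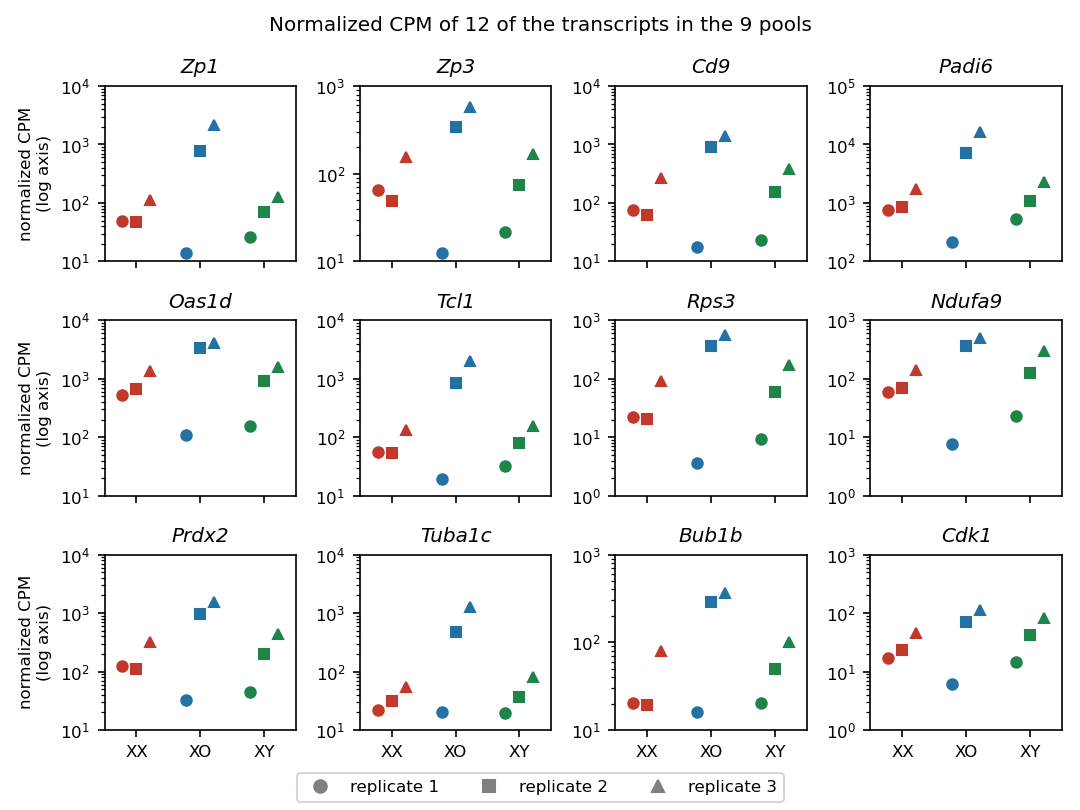
Normalized CPM (log axis) of 12 of the 200 transcripts in the 9 pools, by genotype, with the replicate as the marker shape. XO1 is the lowest pool in each gene but Tuba1c, where XY1 is, XO3 is the highest pool, and replicate 3 lies above replicate 1 in each genotype, as the rule requires.

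Ribosomal protein transcripts formed the largest named group, with 6 of 54 candidates (11.1%) among the 200, and 33 of the 54 were higher in replicate 3 in every genotype against 7 lower. The summed level of all 87 listed genes did not rise in every genotype. From replicate 1 to replicate 3 it went from 16854 to 12983 in XX, 12138 to 22604 in XO and 14738 to 15181 in XY pools. Rps3, a protein of the small subunit, stood at 22.1, 20.3 and 92.6 in XX, 3.62, 360 and 552 in XO, and 9.30, 60.5 and 170 in XY pools. Rpl35 stood at 19.6, 15.8 and 64.3 in XX, 9.32, 287 and 632 in XO, and 9.30, 35.5 and 127 in XY pools, and Rpl41, which encodes the shortest ribosomal protein, at 11.4, 9.80 and 29.9, at 5.70, 329 and 668, and at 5.11, 19.9 and 65.8. Rpl7l1 reached 129 in XO3 and 62.2 in XY3. The remaining ribosomal members were Rpl37a, at 1.04 in XO1 and 186 in XO3, and Rps15. Many processed copies of ribosomal protein genes exist in the genome, and counts of these genes are uncertain to the extent that reads matched a copy.

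The mitochondrial ribosome and the nuclear-encoded respiratory chain gave 3 of 31 and 4 of 43 candidates. Ndufa9, a subunit of complex I, stood at 59.5, 69.3 and 141 in XX, 7.77, 357 and 504 in XO, and 22.8, 124 and 297 in XY pools. Cox6c, a subunit of cytochrome c oxidase, stood at 13.5 in XO1 and 434 in XO3, Atp5l, a subunit of ATP synthase, at 10.4 and 299, and Atp5g1, which encodes a ring subunit of the same enzyme, at 2.07 and 109. The mitochondrial ribosomal members on the list were Mrps7, Mrpl23 and Mrpl30, and Mrps18b, whose symbol ends in a letter and was not on the list, is described with its neighbour further on. Transcripts of the mitochondrial genome itself ran the other way, with median log2 ratios of −0.76 for XX, −2.03 for XO and −1.30 for XY oocytes over 22 genes and 0 past the limit.

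Protein turnover and translation were represented by single genes rather than by whole complexes. Psmb3 and Psmc5, a core and an ATPase subunit of the proteasome, were 2 of 29 candidates, and Psmb3 stood at 11.4, 7.35 and 36.0 in XX, 3.62, 157 and 285 in XO, and 2.32, 14.7 and 68.2 in XY pools. Eef1d, a guanine nucleotide exchange factor of translation elongation, and Eif3d, a subunit of an initiation factor, were 2 of 44, and Eef1d stood at 797 in XO3 against 12.4 in XO1. Nars and Gars, the synthetases that charge asparagine and glycine tRNA, were 2 of 13 and reached 333 and 30.5 in XO3. Cct7, a subunit of the cytosolic chaperonin, stood at 22.4, 21.4 and 66.1 in XX, 2.59, 147 and 209 in XO, and 9.76, 43.3 and 107 in XY pools.

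The members on the lists of cell cycle, tubulin and cytoskeleton genes were Bub1b, Cdk1, Tuba1c, Tubg2 and Myl6. Bub1b, a kinase of the spindle checkpoint, stood at 20.3, 19.3 and 79.2 in XX, 16.1, 284 and 365 in XO, and 20.5, 49.5 and 101 in XY pools. Cdk1, the kinase that drives meiotic resumption, had a narrower spread, at 17.1, 23.1 and 45.7 in XX, 6.21, 71.3 and 112 in XO, and 14.4, 42.0 and 83.6 in XY pools. Tuba1c, an alpha-tubulin, stood at 22.1, 30.8 and 54.2 in XX, 20.2, 468 and 1284 in XO, and 19.5, 36.8 and 79.7 in XY pools. The replicate 1 pools of Tuba1c were level across the genotypes, and XO2 and XO3 accounted for most of its range. Tubulin genes are close in sequence, so Tuba1c is uncertain in the way of the ribosomal genes.

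Metabolic and defence genes completed the named groups. Prdx2, a peroxiredoxin that reduces hydrogen peroxide, stood at 123, 112 and 322 in XX, 32.6, 972 and 1523 in XO, and 44.6, 196 and 432 in XY pools. Fdft1, which encodes squalene synthase of the sterol pathway, reached 1090 in XO3 against 61.2 in XX3 and 108 in XY3, and Pkm, a pyruvate kinase, reached 106 against 16.1 and 15.7. Irf1, a transcription factor of the interferon response, and Ddx58, which encodes the RNA sensor RIG-I, were 2 of 5 candidates, and Irf1 stood at 7.48, 4.90 and 21.3 in XX, 2.07, 42.4 and 57.0 in XO, and 2.79, 11.4 and 28.4 in XY pools. B2m, the light chain of class I molecules on the same list, was outside the 200, with a score of −0.74.

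Several groups of comparable or larger size gave no member. These were 174 candidates named Zfp, most of them zinc finger genes, 35 for DNA and histone methylation, 28 for meiotic chromosomes and repair, 20 oocyte transcription factors, 17 kinesins, 15 small RNA pathway genes and 15 of the oocyte growth factor and TGF-beta list. At the 2.86% of all candidates, each of these lists but that of the Zfp genes would hold few members if any, so 0 is near that share. Of the 174 Zfp genes, 83 were lower and 39 higher in replicate 3 in every genotype. Of the 35 for DNA and histone methylation 11 were lower and 19 higher, and of the 28 for meiotic chromosomes and repair 15 were lower and 6 higher. Unnamed gene models called Gm or Rik gave 28 of 1088 candidates (2.57%), close to the 2.86% of all candidates. No test was run on any list, since the lists share the libraries that chose the transcripts.

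**Figure D4:**
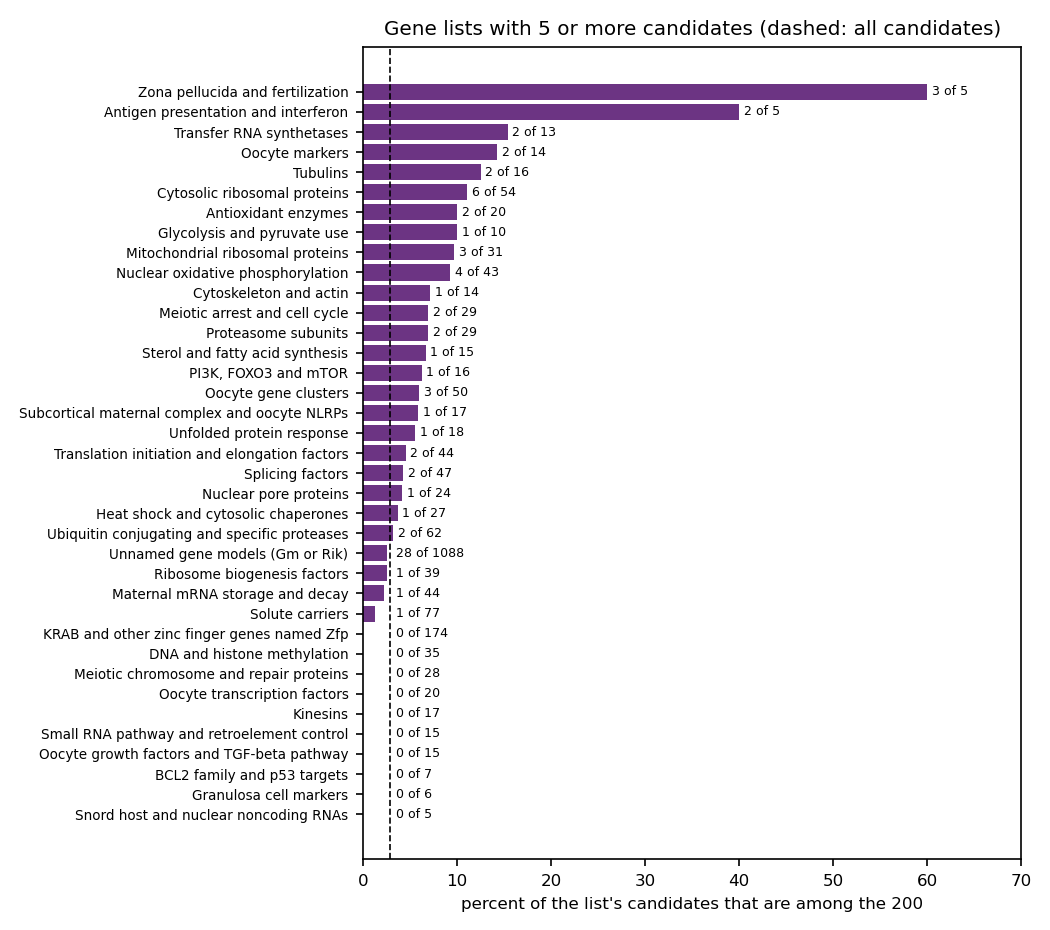
Percent of each list's candidates that are among the 200 transcripts, with the counts printed beside the bars, for the 37 lists with 5 or more candidates; the dashed line is the 2.86% of all candidates. Zona pellucida and fertilization genes stand at 3 of 5, cytosolic ribosomal proteins at 6 of 54, and 10 lists at 0.

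The tissue label was checked against marker lists. Of 15 oocyte markers 14 stood at 10 or more in every pool, with Zp2 between 4919 and 17150 and Nlrp5 between 2001 and 4843, and the exception was Figla, between 0.518 and 17.5. XO1 was low for several of them, with Zp3 at 12.4, Zp1 at 14.0, H1foo at 15.5 and Zar1 at 19.7. In replicate 3 against replicate 1, 12 of the 15 were higher and 3 lower in every genotype, and 2 of 14 oocyte marker candidates were among the 200. Of 6 granulosa, 1 theca, 1 stromal and 1 endothelial marker candidates none was, and the immune, erythroid and ovarian surface epithelium lists had no candidate. The summed granulosa markers lay between 387 and 596 in the replicate 1 pools and between 370 and 576 in the replicate 3 pools, and more than any other gene Bmpr1b, which oocytes also express, made up the sum. Of the 24 granulosa markers 10 were below 1 in every pool, 5 were higher in replicate 3 in every genotype and 4 were lower. Of the defining genes Fshr was at most 4.52 and Inha, Gja1 and Wt1 at most 0.565 in any pool. Among those higher in replicate 3, Esr2 went from 31.7 to 60.0 in XX, from 18.6 to 147 in XO and from 21.8 to 53.1 in XY pools, Cyp19a1 from 14.2 to 23.8, 3.62 to 27.7 and 10.2 to 44.4, and Serpine2 from 12.8 to 17.7, 17.6 to 63.2 and 9.76 to 29.0. Among the 4 lower, Bmpr1b went from 267 to 212 in XX, from 456 to 247 in XO and from 466 to 310 in XY pools. Nr5a2 went from 31.0 to 21.9, 42.5 to 23.1 and 51.6 to 34.4. The stromal sum lay between 23.2 and 36.3 in replicate 1 and between 35.9 and 97.7 in replicate 3, the endothelial sum between 25.4 and 52.4 and between 61.5 and 155, the immune sum between 12.4 and 17.5 and between 24.1 and 31.0, the erythroid sum between 2.49 and 3.72 and between 0.565 and 2.44, and the surface epithelium sum between 2.85 and 8.28 and between 2.44 and 8.75. Only 1 gene each of the 13 stromal, 7 endothelial and 9 immune markers was higher in replicate 3 in every genotype. These were Myh11, at 11.4 in XO1 and 89.2 in XO3, Pecam1, at 14.5 and 132, and Csf1r, at 0.518 and 20.9. Lower in every genotype were 3 stromal, 0 endothelial and 0 immune markers, and the XX stromal sum went from 36.3 to 35.9. The theca sum lay between 47.1 and 57.6 in replicate 1 and between 24.7 and 38.6 in replicate 3. The part of other cells in the result was not tested.

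The 20 highest scores belonged to genes of mixed function. B9d1, a protein of the ciliary transition zone, stood at 2.49, 4.90 and 20.1 in XX, 0, 71.3 and 108 in XO, and 1.39, 12.7 and 28.1 in XY pools. Ddx47, an RNA helicase of ribosome biogenesis, stood at 3.21, 3.50 and 21.0 in XX, 2.07, 115 and 183 in XO, and 4.18, 13.3 and 32.9 in XY pools. Phf5a, a component of the U2 spliceosome, stood at 17.8, 18.9 and 87.1 in XX, 7.77, 340 and 533 in XO, and 6.97, 38.7 and 152 in XY pools. In all 3, XO2 and XO3 were the highest of the 9 pools. Also in the 20 were Ap2m1, a subunit of the clathrin adaptor, Creb3, a membrane-bound transcription factor of the endoplasmic reticulum, Mcm5 of the replicative helicase, Tcn2, which carries cobalamin, Gckr, the glucokinase regulator, Pan2, a poly(A) nuclease, Mad2l1bp, which binds the checkpoint protein MAD2, and Trim15, Tmem50a, Rps3, Rpl37a, Oas1b and Bub1b. The unnamed entries among them were Gm26728, AC118476.3 and 4930539J05Rik. The log2 ratios of the 20 ran from 1.89 to 2.60 for XX, from 3.72 to 7.05 for XO and from 1.91 to 5.11 for XY oocytes.

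Corin, which encodes a transmembrane serine protease and ranked 3 in score, differed from most of the 200 in where replicate 2 lay. Its normalized CPM was 4.99, 2.10 and 28.0 in XX, 0, 0.517 and 128 in XO, and 0.465, 0.977 and 49.5 in XY pools, or 14, 6, 92, 0, 1, 227, 1, 3 and 164 UMIs. It was the 1 transcript of the 200 in which replicate 2 lay nearer to replicate 1 in all 3 genotypes, and together with Gstm6 it was 1 of 2 in which XO2 lay nearer to XO1. The pools numbered 3 were above the other 6 in Corin, as they were in Gstm6, Gm10364 and Gm5049. Corin was singled out after its values were seen.

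Some of the 200 are neighbours. Of 93 links from a member to a candidate within 5 kb, 22 (23.7%) led to another member, against 2.86% of all candidates. These are 11 pairs, namely Mrps18b and Ppp1r10, Gng3 and Bscl2, Wdr38 and Rpl35, Gm15441 and Txnip, Stmn1 and Gm23634, Pradc1 and Cct7, Cd9 and Gm26728, Nanos2 and Gm45058, Rnaseh2a and Prdx2, Rnf26 and Usp2, and Atp5l and Gm30934. In 10 of the pairs the annotated genes overlap, and 10 are on opposite strands. The values of overlapping genes were near each other in several pairs, as with Wdr38 at 634 and Rpl35 at 632 in XO3, or Gm15441 at 1086 and Txnip at 983. Reads were aligned in stranded mode, but whether counting used strand is not given in the sources used here, so overlapping genes may share reads and cannot be counted as separate observations. Mrps18b and Ppp1r10, which start 44 bases apart on opposite strands of chromosome 17, do not overlap. Mrps18b, of the mitochondrial ribosome, stood at 10.7, 12.3 and 32.0 in XX, 2.59, 128 and 173 in XO, and 3.25, 20.8 and 42.6 in XY pools. Ppp1r10, a regulator of protein phosphatase 1 in the nucleus, stood at 33.1, 35.0 and 89.0 in XX, 23.8, 251 and 351 in XO, and 31.6, 54.0 and 143 in XY pools.

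The 200 also differed from the other candidates in base composition and length. All 200 were found in Gencode vM21 (GRCm38), 92.5% with the same start and end. The median GC content of the longest transcript was 51.6% against 46.4% in candidates, the median transcript length 2260 against 3331 bases, the median span of the gene 11894 against 32278 bases, and the median number of exons 6 against 7. The share of candidates that were among the 200 was 0.400, 0.973, 2.75 and 7.32% over 4 equal groups from the lowest to the highest GC content, and 4.80, 3.31, 2.35 and 0.973% over 4 such groups from the shortest to the longest. Mean level made little difference, with shares between 2.40 and 3.26% over 4 such groups. Protein-coding genes were 169 of the 200 (84.5%), against 84.7% of candidates, and 9 were lincRNAs and 9 antisense genes. The members lay on all 19 autosomes, with 17 each on chromosomes 4 and 11 and 3 each on chromosomes 13 and 18.

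**Figure D5:**
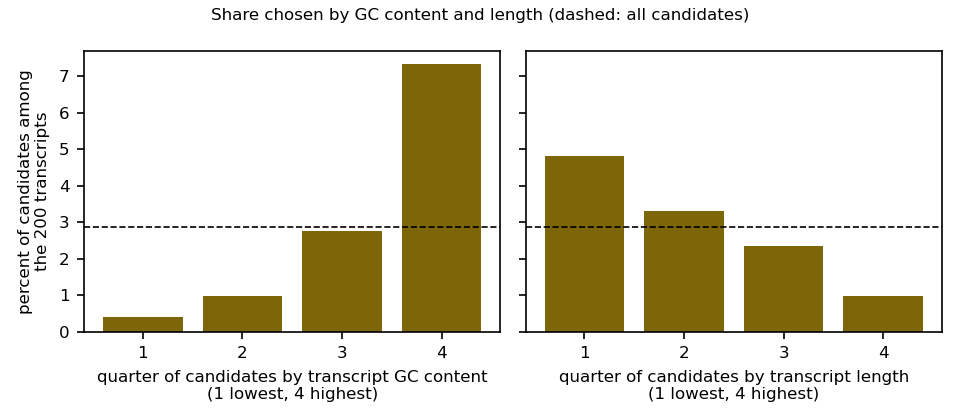
Percent of candidates that are among the 200 transcripts in 4 equal groups by transcript GC content (left) and by transcript length (right); the dashed line is 2.86%. The share climbs from 0.400 to 7.32% with GC content and falls from 4.80 to 0.973% with length.

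The relation to GC content was present outside the 200 as well. Among the other candidates, the median level in the group of highest GC content minus that in the lowest, each gene relative to its own mean in log2 units, was −1.10 in XO1, −0.55 in XY1, −0.23 in XX2, −0.09 in XX1, −0.03 in XY2, 0.18 in XX3, 0.39 in XY3, 0.59 in XO2 and 0.82 in XO3. This is nearly the order of the pools by the share of UMIs on the 200 transcripts, with the places of XX1 and XX2 exchanged. The part of GC content in the result was not tested. On the X chromosome, which the rule left out, 4 of 244 genes (1.64%) with a mean of at least 10 passed the limit of 1.15, namely Rpl10, Slc25a5, Haus7 and Prrg3.

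The study asked how the sex chromosomes affect transcription in growing oocytes, and the genotypes were therefore compared over the 3 pools of each by edgeR's quasi-likelihood test across 10993 genes. Of the 200 transcripts 199 were tested, Rps15 being too low. The study used a p below 0.05 on limma fits with surrogate variables as covariates, which the fit here left out. By its fits many autosomal genes were higher in XX than in XO oocytes. At an unadjusted p below 0.05 here, 65 (32.7%) were lower in XX than in XO oocytes and 0 were higher. Of 10576 autosomal genes 17.1% were lower and 0.823% higher. In the contrast of XY with XO oocytes 30 (15.1%) were lower in XY and 0 higher, against 8.37 and 1.56%, and in that of XX with XY oocytes 0 were called in either direction, against 4.32% lower and 0.624% higher. After Benjamini-Hochberg adjustment over all genes 0 of the 199 passed 0.05 in any of the 3 contrasts, where 0.00946% of autosomal genes were lower in XX than XY oocytes and 0% were called otherwise. DESeq2 on the same counts called 14 lower in XX than XO oocytes, 1 lower in XY than XO and 0 in XX against XY at an adjusted p below 0.05, where 4.13, 0.573 and 0.445% of autosomal genes with an adjusted p were lower. Unadjusted, DESeq2 called 116, 53 and 0 lower in the same order, against 20.3, 10.5 and 4.75%. The mean of at least 10 that made a gene a candidate included the XO pools. In 186 of the 200 transcripts (93%) XO2 and XO3 were above all other pools, against 35.5% of candidates. Transcripts could thus pass that mean through the XO pools, while the 10576 autosomal genes were not held to it. The excess of calls lower than XO cannot be told apart from that choice. The rule also asks for a wide difference between pools of each genotype, which widens the spread that the test uses. The median SD within a genotype was 1.82 over the 200 and 0.509 over candidates, in log2 units. The 0 calls for XX against XY, and the 0 after adjustment, therefore cannot be told apart from the choice either.

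The pools of the genotypes overlapped in every one of the 200 transcripts in each contrast, called or not. The rule favours this, since it asks for a wide range within each genotype, and of the candidates 16.7% did not overlap between XX and XO, 10.4% between XY and XO and 14.3% between XX and XY pools. The median log2 fold change was −2.10 for XX against XO, −1.61 for XY against XO and −0.47 for XX against XY oocytes, with autosomal medians of −0.47, −0.30 and −0.20, and the last of the 3 turned to 0.27 with scaling to the spike-in total. The 27 transcripts called in both contrasts with XO share the XO pools. Padi6 averaged 1124 ± 555 (SD, n = 3) over the XX pools, 8002 ± 8178 over the XO pools and 1309 ± 910 over the XY pools, so the SD of the XO pools exceeded their mean. Its log2 fold change for XX against XO was −2.83 ± 1.18 (SE), with an edgeR adjusted p of 0.257, and for XX against XY it was −0.22 ± 1.10 with an adjusted p of 1.00. Zp1 was called in XX against XO (log2 −3.81 ± 1.31, edgeR adjusted p = 0.214) and in XY against XO (−3.70 ± 1.30, edgeR adjusted p = 0.485). Zp3 was not, at −1.78 ± 1.10 with an edgeR adjusted p of 0.386 for XX against XO.

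The counts moved with single pools, and the shares of all autosomal genes moved with them. Without XO1, 190 transcripts were called in XX against XO and 167 in XY against XO, all lower than in XO, where 32.7 and 24.7% of autosomal genes were called lower. Without XO3 the counts were 5 and 1, against 8.13 and 2.35%, and without XO2 they were 29 and 18, against 12.8 and 5.69%. Leaving out XX1 or XX2 gave 3 or 14 for XX against XO, against 6.11 or 8.05%. Leaving out XY1 or XY2 gave 5 or 3 for XY against XO, against 4.65 or 1.69%, while 56 were called without XY3, against 8.23%. Of the pools of the genotype not compared, leaving out XY2 gave 42 for XX against XO, against 11.8%, and leaving out XX1 or XX3 gave 16 or 19 for XY against XO, against 4.51 or 4.92%.

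The deviations of same-numbered XY and XO pools from their genotype means correlated at 0.837, 0.299 and 0.778 for replicates 1, 2 and 3, each above the limit of 0.1 set for treating the numbers as pairs, although XO2 correlated better with XY3, at 0.737, than with XY2. A fit blocked on the number called 105 transcripts lower in XY than XO oocytes, against 14.4% of autosomal genes. The transcripts were chosen for a difference between the numbers, and the block takes that difference out of the residual spread, so the higher count cannot be told apart from the choice. The pairs with XX were below the limit at replicate 2.

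The authors also deposited log2 values from which batch effects had been regressed. In these, the difference of replicate 3 from replicate 1 over the 200 transcripts had a median of 0.67 among XX pools, −0.60 among XO pools and 0.69 among XY pools, where log2 of the normalized CPM with 0.5 added gave 1.45, 4.87 and 2.66. Only 2 of the 200 were still higher in replicate 3 in every genotype, against 1.86% of candidates. The median SD within a genotype went from 1.82 to 0.461 on the log2 scale, while it went from 0.509 to 0.222 over candidates. The order of the genotypes turned with it. The median difference of XX from XO oocytes was −1.35 before and 0.55 after regression, that of XY from XO was −1.07 and 0.74, and that of XX from XY was −0.18 and −0.09. XX oocytes were above XO oocytes in 5 of the 200 before regression and in 167 after it, and XY oocytes above XO in 4 and in 178, where the shares of candidates were 21.3 and 68.9% for XX and 30.4 and 71.1% for XY. The difference between both matrices was carried by 2 components across the pools, which held 99.9996% of it, and the first of these was lowest in XO1 (−0.31) and highest in XO3 (0.71). For these transcripts, whether XO oocytes stood above or below the other genotypes thus depended on which of the deposited matrices was read.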

How the data were processed

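Pools of 30 oocytes were sequenced with Smart-seq3, in which unique molecular identifiers (UMIs) mark the 5′ end of each cDNA. The authors aligned reads with HISAT2 to GRCm38 and Gencode and deposited UMI counts of 5′ exons per gene. They also deposited a signal called normalized CPM, which is the count times 1 constant per sample, set by the gene total and by a TMM factor computed on 79 ERCC spike-ins, and log2 values from which batch effects had been regressed. HISAT2 and limma are named in the submitters' notes, without versions.

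The 200 transcripts and the gene lists were chosen with earlier results of these data known. Levels were described as log2(normalized CPM + 1). On this scale folds of low genes are understated. Genotypes were compared on the deposited counts with edgeR 4.0.16 (filterByExpr, spike-in factors, 1 mean per genotype, quasi-likelihood F test, Benjamini-Hochberg adjustment over all genes), with DESeq2 1.42.0, sva 3.50.0 and other scalings as alternatives, in R 4.3.3. Depth was 2130145 to 3157338 UMIs per pool, and 3 UMIs were taken as the floor, which covers counting error only. Spike-ins, at most 0.862% of UMIs, stayed out of library sizes. The edgeR step was tested on simulated data made from XX against XO counts of 10675 genes, where it called 92.4% of 197 genes changed by 2 log2 units and 4.47% of unchanged genes. Named genes were the 20 highest scores, members of the lists (at most 4 per list with values), the genes beside the limit, and, per contrast and direction, the 3 lowest p-values among called transcripts whose genotypes did not overlap, of which there were 0. Neighbouring genes and genes outside the 200 were named after their values were seen. Promoters are RefSeq's, GRCm38.p6, the first entry per symbol, with 56 of the 200 not in that table. P-values measure the spread between pools, which may share mice.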

Additional observations from a re-analysis of the deposited data

How the results depend on the processing

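The list was redrawn with pseudocounts of 0.5 and 5, TMM factors of the genes, unscaled CPM, and means of 5 or more and 20 or more. These lists shared between 136 and 194 of the 200 transcripts, fewest with a mean of 20 or more. Scaling to the spike-in total was not tried for the list. In the genotype left out, the median log2 ratio of replicate 3 over replicate 1 stayed above 0 in each setting tried. With a pseudocount of 5 it was 0.95 for XX, 4.02 for XO and 2.18 for XY oocytes, with a pseudocount of 0.5 it was 4.93 for XO, with TMM factors of the genes 4.43 for XO and 2.42 for XY, with unscaled CPM 1.28 for XX and 4.46 for XO, and with a mean of 5 or more 4.42 for XO and 2.44 for XY. With the mean taken without the genotype left out, chosen after seeing the data, it was 4.42 for XO. The median position of replicate 2 in XX oocytes was 0.0915 with TMM factors, and 0.00 with unscaled CPM.

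The counts of transcripts called lower in XX than XO oocytes (65) and in XY than XO oocytes (30) were 38 and 23 with TMM factors of the genes (8.10 and 5.78% of autosomal genes), 2 and 4 with scaling to the spike-in total (0.482 and 0.681%), 190 and 172 without a filter on low counts (13.8 and 8.87%), 54 and 43 with 2 surrogate variables (7.31 and 8.53%), 116 and 53 with DESeq2 (20.3 and 10.5%), and 0 and 0 after Benjamini-Hochberg adjustment. Surrogate variables also called 4 and 10 higher (6.00 and 9.68%), and 42 lower and 7 higher in XX against XY (11.2 and 7.65%), where no filter gave 13 lower (3.28%). Scaling to the spike-in total moved the median autosomal log2 fold change of XX against XO from −0.47 to 0.41, and the median of XX against XY over the transcripts from −0.47 to 0.27. Leaving out 1 pool at a time gave 3 to 190, 1 to 167 and, for XX against XY, 0 to 1 lower. Without XY3 the median of XX against XY was 0.47. In the paired fits with a replicate block 120 were called lower in XX than XO (21.7% of autosomal genes), 105 in XY than XO (14.4%), and 6 lower and 1 higher in XX than XY oocytes (6.73 and 1.26%). The same numbers correlated at 0.490, −0.464 and 0.693 between XX and XO pools and at 0.460, −0.07 and 0.745 between XX and XY pools. Replicates 1 and 3 were thus above the limit of 0.1 there and replicate 2 was below it. The blocked fits with XX therefore rest on numbers that did not all pass as pairs. The causes of these shifts were not tested.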
